A study of Mus musculus with 5 samples.

Results

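The 39 genes described here are the DNA replication and S phase genes of MMTV-PyMT tumor organoids, chosen by their symbols. The rule uses no measured value, but the list was chosen with earlier results of these data known. All 39 were among the 18384 genes listed over the 5 plates analyzed. In the wells kept for analysis, Ccne2 had no count in either Collagen I plate, and Rfc4 had none in Collagen I replicate 3. The organoids were grown from mammary carcinomas of mice in which the MMTV promoter, active in mammary epithelium, drives the polyoma middle T oncogene. The line was a gift from another laboratory and was passaged in BME, a basement membrane extract, in medium with B27, N-acetylcysteine and FGF2. They were then kept for 5 days either in BME, where they do not invade, or in fibrillar Collagen I, where they do, and living single cells were sorted into 384-well plates by scatter and dye exclusion with no marker gate. The study asked how Collagen I changes gene expression in the basal-like cells that lead invasion. The plates were BME replicates 1, 2 and 3 and Collagen I replicates 1 and 3, and another Collagen I plate was not analyzed here. The labels give no age, strain or further treatment.

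DNA is copied once per cell cycle. Before S phase, Cdc6 and Cdt1 load the ring of Mcm2 to Mcm7 onto origins, and in S phase Cdc45 and the GINS complex join the ring to form the helicase that opens the strands. Primase and DNA polymerase alpha lay down primers, and polymerases delta and epsilon extend them on the sliding clamp Pcna, which the Rfc complex loads. The genes of this machinery are classic targets of the E2F factors, whose activity rises as cells pass from G1 into S phase, so their transcripts are widely used as a sign of cycling cells.

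A well was kept with more than 500 counts and fewer than 8000 genes, which left 319, 318 and 307 BME wells and 251 and 305 Collagen I wells. A basal well had at least 5 counts of Krt5, Krt14 and Krt17 together per 10000 counts, and a non-basal well had fewer than 2. BME held 96, 114 and 92 basal and 190, 166 and 181 non-basal wells, Collagen I held 88 and 138 basal and 133 and 144 non-basal wells, and the 23 to 38 wells of a plate in between were in neither class. In 7, 16, 7, 12 and 19 of the basal wells, in the order of the plates above, the class rested on 1 keratin count. Among the non-basal wells, 50, 25, 39, 28 and 10 held 1 keratin count. The limits are shares of a well's counts, so a shallow well is non-basal only without any keratin count. A deep well can hold some, so the classes depend in part on depth. The epithelial markers Epcam, Cdh1, Krt8, Krt18 and Krt19 were all found, at a summed level of 1071 to 1101 CPM (counts per 1000000 counts) in BME and 2893 to 2950 CPM in Collagen I. Of the 5, Cdh1 went the other way, at 221, 186 and 184 CPM in BME against 135 and 128 CPM in Collagen I.

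The plates of the 2 matrices differed in more than their genes. The median well held 21739 to 25603 counts in BME and 5106 and 2749 in Collagen I. The share of counts from chromosome M was 15.4% ± 2.22 (SD, n = 3) in BME and 8.61% ± 1.01 (SD, n = 2) in Collagen I, and that of Rn45s, a ribosomal RNA precursor, was 2.05% ± 0.564 and 7.59% ± 1.07. Collagen I replicate 3 stood apart in the sum of 8 fibroblast markers, at 428 CPM against 72.9 to 133 CPM in the other 4 plates. Col1a2 (135 CPM), Dcn (72.1 CPM) and Col3a1 (40.9 CPM) were high in this plate alone. Col1a1 was high in both Collagen I plates (81.8 and 114 CPM). Postn (37.0 CPM) and Pdgfra (23.4 CPM) lay within the range of the other plates. In BME the sum was 153 to 236 CPM in basal wells and 41.4 to 47.1 CPM in non-basal wells, described below. By the flow cell codes of the plates, all BME plates were sequenced on the same flow cell and each Collagen I plate on another, so matrix and sequencing run cannot be told apart. The same 384 well barcodes were used in all plates. The part of these differences in the results was tested only through the alternatives named beside them. No source says that the plates came from separate cultures, so the p-values measure only the spread between these plates. A sum over wells also cannot tell fewer cells with a transcript from fewer transcripts per cell.

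The replication genes were lower in Collagen I as a group. Together they made up 3382, 3363 and 3246 CPM in BME against 1446 and 1346 CPM in Collagen I, a 2.38-fold gap between the means of 3330 ± 73.7 (SD, n = 3) and 1396 ± 70.6 (SD, n = 2). Per well this was 89.97 ± 5.40 member counts in BME and 6.39 ± 2.62 in Collagen I, where all genes were also counted less deeply. Set against the ERCC spike-in RNA added equally to each well, the members gave 127 ± 9.65 counts per 1000 ERCC counts in BME and 34.5 ± 19.9 in Collagen I.

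For the test, the wells of each plate were added up and edgeR's quasi-likelihood test was run on the sums, with Benjamini-Hochberg adjustment over all genes tested. In all wells, 36 of 39 members were lower in Collagen I at an adjusted p under 0.05, against 16.3% of the 11839 genes tested. No member was higher by this test, at an unadjusted p under 0.05 or by DESeq2. The median log2 fold change of the members was -1.44, and -1.26 with Ccne2, which had no count in Collagen I, set to its bound, beside -0.03 over all genes. For 39 of 39 members every Collagen I plate lay below every BME plate, as did 31.9% of all genes. The 3 members that did not pass were Ccne2, Pold1 and Tk1. After each well was thinned to 2000 counts, 19 of the 32 members that could be tested passed, and without Collagen I replicate 3 the count was 26. A fit without 1 Collagen I plate assumes that the other varies like the BME plates, whose spread alone it uses. The counts under these alternatives stand without the share of all genes called under the same setting.

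**Figure D1:**
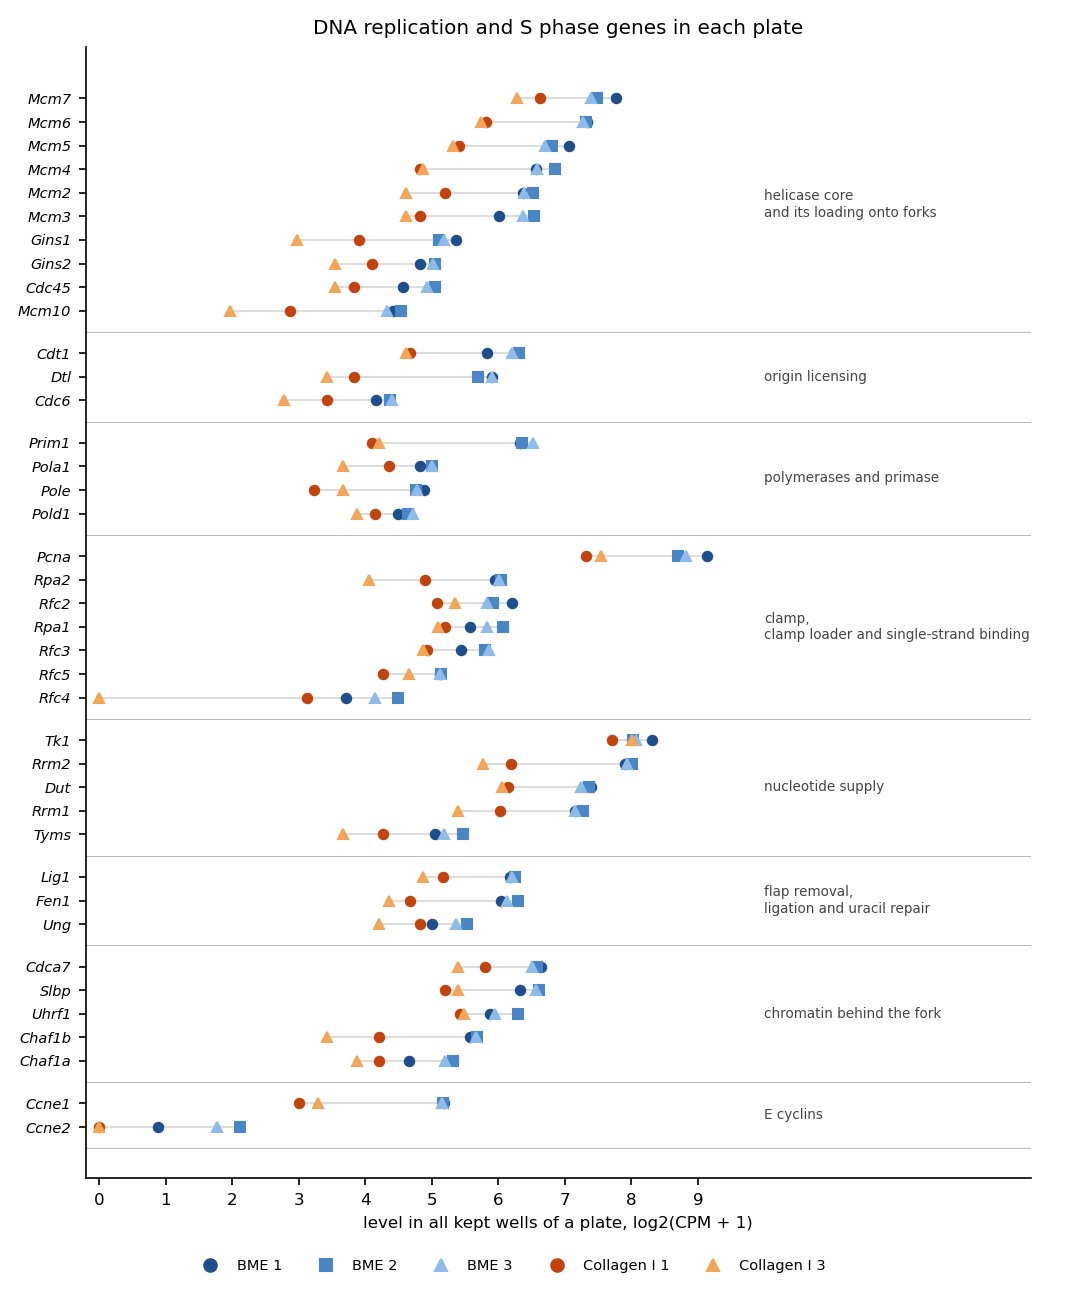
Level of each of the 39 members in all kept wells, as log2(CPM + 1), grouped by role, with 1 point for each of the 3 BME plates (blue) and 2 Collagen I plates (orange) and a line over their range. The Collagen I points lie to the left of the BME points for every member, and by the least for Tk1.

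The helicase and its loading partners held the largest number of members, and 10 of 10 passed. Mcm10, which helps to start the assembled helicase, was at 20.4, 22.2 and 19.2 CPM in BME and 6.29 and 2.92 CPM in Collagen I, and fell by 2.08 on the log2 scale (SE 0.34, edgeR adjusted p = 0.000506). Of the ring itself, Mcm4 was at 94.1, 115 and 94.4 CPM against 27.3 and 28.3 CPM, a log2 fold change of -1.86 (SE 0.19, edgeR adjusted p = 8.03e-06). For both genes each Collagen I plate lay below every BME plate. Mcm3 (63.5, 92.2 and 82.1 CPM against 27.3 and 23.4 CPM) and Mcm6 (160, 159 and 154 CPM against 55.2 and 52.6 CPM) had log2 fold changes of -1.63 and -1.54. Gins1, a subunit of the GINS complex, had 40.3, 33.4 and 35.3 CPM in the BME plates against 13.99 and 6.82 CPM (log2 fold change -1.74). The most abundant member of the role, Mcm7, had the smallest change in it, with 217, 177 and 167 CPM against 97.9 and 77.0 CPM and a log2 fold change of -1.08 (SE 0.17, edgeR adjusted p = 0.000365). The summed level of the 10 genes was 2.76-fold higher in BME.

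Of the licensing genes, 3 of 3 passed, and their sum was 3.33-fold higher in BME. Dtl, which targets Cdt1 for destruction once S phase has begun, was at 58.7, 50.9 and 58.7 CPM in BME and 13.3 and 9.74 CPM in Collagen I. The groups were far apart, and Dtl fell by 2.25 on the log2 scale (SE 0.24, edgeR adjusted p = 1.24e-05). Cdt1 itself was at 55.9, 78.4 and 72.6 CPM against 24.5 and 23.4 CPM, with a log2 fold change of -1.52 (SE 0.22, edgeR adjusted p = 0.000163).

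The letters that E2F factors are known to bind were searched for in the promoters of these genes. Of the 39 members, 33 matched the RefSeq promoters of GRCm38.p6, which run from 250 bases before to 50 bases after each gene's start. TTTGGCGC, TTTCCCGC, TTTGCCGC or TTTCGCGC, searched on both strands, stood in 13 of the 33 (39.4%), in 15 of 49 other replication genes (30.6%), in 1 of 25 mitosis genes (4.0%) and in 2.605% of all 27025 genes with a promoter. CCAAT stood in 57.6% of the members, 88.0% of the mitosis genes and 41.1% of all genes. A match is a string of letters, not a measured binding site. The windows shown belong to members named for their values and hold no annotated exon, and the capitals mark the E2F letters on either strand, with overlapping matches run together. They are Dtl at chr1:191575545-191575604 on the minus strand, where the match begins 8 bases before the RefSeq start, and Mcm6 at chr1:128359782-128359841 on the minus strand (110 bases before). Mcm5 at chr8:75109330-75109389 (153 bases before) and Cdc6 at chr11:98907987-98908046 (138 bases before), both on the plus strand, are the others. In GENCODE vM21 the Cdc6 gene begins at 98907801, so by that annotation its window lies within the gene.
Dtl: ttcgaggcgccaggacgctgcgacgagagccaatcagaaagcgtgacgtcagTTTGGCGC
Mcm6: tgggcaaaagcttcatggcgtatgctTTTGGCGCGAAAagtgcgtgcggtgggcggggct
Mcm5: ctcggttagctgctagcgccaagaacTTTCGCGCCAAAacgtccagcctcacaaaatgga
Cdc6: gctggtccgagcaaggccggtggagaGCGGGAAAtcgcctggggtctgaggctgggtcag

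Prim1 had the largest change among the members that passed the test. It encodes the catalytic subunit of primase, on mouse chromosome 10 (chr10:128015168-128030037, GRCm38, plus strand). Its level was 79.1, 80.9 and 91.1 CPM in BME and 16.1 and 17.5 CPM in Collagen I. The 2 matrices were well separated, and Prim1 fell by 2.32 on the log2 scale (SE 0.21, edgeR adjusted p = 2.85e-06). Of the 3 polymerase subunits, Pole and Pola1 passed, with log2 fold changes of -1.46 and -0.88, and Pold1, the catalytic subunit of polymerase delta, did not (-0.61, edgeR adjusted p = 0.0709).

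The clamp, its loader and the single-strand binding proteins passed in 7 of 7 cases, with smaller changes than the helicase (median log2 fold change -0.82 against -1.53). Pcna (chr2:132249162-132253314, minus strand), the ring that holds polymerases on DNA, was the most abundant member, at 562, 416 and 452 CPM in BME and 158 and 186 CPM in Collagen I. It fell by 1.47 on the log2 scale (SE 0.18, edgeR adjusted p = 3.96e-05), with no overlap between the plates. Rfc4, a loader subunit, was the extreme of the group but rested on few counts, with 12.02, 21.6 and 16.6 CPM in BME against 7.69 CPM (11 counts) and 0 in Collagen I, and a log2 fold change of -1.92 (SE 0.57, edgeR adjusted p = 0.0196). The other loader subunits and Rpa1 lay between -0.82 and -0.69, and Rpa2 was at -1.46.

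Genes of nucleotide supply split widely. Rrm2, the regulated subunit of ribonucleotide reductase, was at 239, 257 and 244 CPM in BME and 72.0 and 53.6 CPM in Collagen I, and fell by 1.95 on the log2 scale (SE 0.16, edgeR adjusted p = 1.34e-06). Its partner Rrm1 was at -1.44, Tyms, which makes thymidylate, at -1.26 and Dut, which clears dUTP, at -1.24, and these passed as well. Tk1, the thymidine kinase of the salvage pathway (chr11:117815526-117826092, minus strand), differed from them. It stood at 316, 259 and 267 CPM in BME and 208 and 256 CPM in Collagen I, with a log2 fold change of -0.27 (SE 0.16, edgeR adjusted p = 0.211). The 2 nearest plates, BME replicate 2 and Collagen I replicate 3, were almost level. The 5 genes together made up 26.1% ± 0.324 (SD, n = 3) of the member CPM in BME and 30.8% ± 1.33 (SD, n = 2) in Collagen I, a difference that was not tested.

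The genes that finish and pack the new strands were lower too. Fen1, which removes the flaps of Okazaki fragments, was at 64.6, 77.4 and 69.1 CPM against 24.5 and 19.5 CPM (log2 fold change -1.65), and Lig1, the ligase that seals them, was at 71.6, 75.4 and 72.7 CPM against 35.0 and 28.3 CPM (-1.19). Ung, which removes uracil from DNA, was at -0.75. Of the chromatin genes, 5 of 5 passed. Chaf1b, a subunit of the factor that places histones behind the fork, was at 46.8, 49.99 and 49.7 CPM in BME and 17.5 and 9.74 CPM in Collagen I (log2 fold change -1.79, SE 0.24, edgeR adjusted p = 8.81e-05). Cdca7, a chromatin remodeling partner, was at 98.8, 95.2 and 89.7 CPM against 54.5 and 40.9 CPM (-0.97), and Uhrf1, which reads hemimethylated DNA, had the smallest change of the role (-0.60, edgeR adjusted p = 0.0264).

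The E cyclins, which switch on Cdk2 at the entry into S phase, were the least abundant role. Ccne1 was at 35.5, 34.8 and 34.7 CPM in BME and 6.99 and 8.77 CPM in Collagen I. The BME plates were almost level and the Collagen I plates far below them, and Ccne1 fell by 2.17 on the log2 scale (SE 0.26, edgeR adjusted p = 4.22e-05). Ccne2 had 56 counts over the BME plates (2.20 CPM) and 0 in Collagen I, which makes it at least 1.80-fold lower there, against a floor of 3 counts over the group. It did not pass the test (edgeR adjusted p = 0.0729).

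In basal wells alone the module was at 2785, 2648 and 2926 CPM in BME and 1200 and 780 CPM in Collagen I, a 2.81-fold gap between means, and 30 of 38 members tested passed, against 8.31% of 10296 genes. The basal wells of the matrices also differed in luminal markers, with a sum over 9 genes of 826 to 959 CPM in BME against 3059 and 3194 CPM in Collagen I (non-basal wells 2189 to 2548 CPM against 3581 and 3931 CPM), and the part of this in the result was not tested. Over all wells, Krt8, Krt18, Krt19, Csn3 and Esr1 were higher in Collagen I, and Kit overlapped. Cd14, Prlr and Elf5 went the other way there, with Cd14 at 1476, 1033 and 1128 CPM in BME against 526 and 543 CPM. In basal wells the plates did not overlap for 35 of the 39 members, against 29.7% of all genes. The median log2 fold change was -1.56. Mcm5 of the helicase ring was at 96.4, 89.6 and 88.0 CPM against 24.8 and 10.6 CPM (10 and 4 counts), and fell by 2.30 on the log2 scale (SE 0.33, edgeR adjusted p = 2.49e-05). Rrm2 was at 168, 196 and 231 CPM against 57.0 and 26.6 CPM (23 and 10 counts), with a log2 fold change of -2.19 (SE 0.28, edgeR adjusted p = 4.84e-06). Both genes had a wide gap between the matrices and a lower value in Collagen I replicate 3 than in replicate 1.

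Several of the largest basal changes rested on few counts. Prim1 had 51.8, 58.5 and 76.6 CPM in the BME plates against 9.91 and 5.32 CPM (4 and 2 counts), a log2 fold change of -2.97 (SE 0.45, edgeR adjusted p = 4.67e-05). Ccne1 had 201 BME counts and 1 Collagen I count, a ratio of pooled levels of 21.1 (95% counting interval 3.75 to 838), and Mcm10 had 86 and 1, a ratio of 9.03 (1.58 to 361). These intervals cover counting error only. Dtl (49.9, 41.4 and 38.1 CPM against 12.4 and 5.32 CPM), Chaf1b (43.6, 40.0 and 44.7 CPM against 12.4 and 5.32 CPM) and Chaf1a (19.8, 28.9 and 34.5 CPM against 7.44 and 5.32 CPM) changed by -2.21, -2.20 and -2.07 on the log2 scale. The basal count was 12 without Collagen I replicate 3 and 25 without wells high in fibroblast markers, an alternative chosen after seeing the data. It was 8 of 11 after thinning, 18 with ERCC scaling and 15 with wells of under 10% chromosome M counts. With ERCC scaling 322 of the 10296 genes tested were lower. The other alternative counts stand without the share of all genes called under the same setting.

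In non-basal wells the module was at 3626, 3812 and 3506 CPM in BME and 1626 and 1582 CPM in Collagen I. Here 32 of 38 members passed, against 13.9% of 11076 genes, with a median log2 fold change of -1.35, and plates did not overlap for 36 of 39, against 31.8% of all genes. Fen1 led, with 69.2, 90.3 and 71.4 CPM in BME and 15.3 and 16.9 CPM in Collagen I. It fell by 2.25 on the log2 scale (SE 0.27, edgeR adjusted p = 1.69e-05). Prim1 (91.2, 96.9 and 102 CPM against 21.2 and 18.8 CPM) and Dtl (63.7, 55.6 and 71.2 CPM against 14.1 and 15.0 CPM) changed by -2.24 and -2.12. Both stood in Collagen I at less than any BME plate, as they did in basal wells. The Collagen I values rested on 13 and 9 counts for Fen1, 18 and 10 for Prim1 and 12 and 8 for Dtl.

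For the next members in order of change, each Collagen I plate again lay below every BME plate. Rrm2 was at 267, 299 and 256 CPM against 89.6 and 50.8 CPM (log2 fold change -1.90), and Ccne1 at 40.7, 39.05 and 38.3 CPM against 10.6 and 11.3 CPM (-1.84). Mcm3 (68.8, 106 and 87.3 CPM against 30.7 and 15.0 CPM), Mcm10 (24.9, 30.8 and 22.2 CPM against 8.25 and 5.64 CPM) and Rfc4 (14.1, 27.3 and 17.8 CPM against 9.43 and 0 CPM) changed by -1.83, -1.82 and -1.76. In Collagen I, Ccne1 rested on 9 and 6 counts, Mcm3 on 26 and 8, Mcm10 on 7 and 3 and Rfc4 on 8 and 0. After thinning 13 of 24 members passed, and 19 passed with wells of under 10% chromosome M counts. The share of all genes called under these alternatives is not given here.

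Of the 38 members tested in both classes, 25 passed in both, 5 in basal wells alone (Chaf1a, Rfc5, Rpa1, Tk1 and Uhrf1), 7 in non-basal wells alone (Cdc45, Cdc6, Gins2, Pola1, Rfc4, Rpa2 and Ung) and 1, Pold1, in neither. Passing in 1 class and not in the other does not show that the classes differ. Whether the change from BME to Collagen I plates was unequal between the classes was tested in 1 fit with the plate as a block. Only Tk1 passed among 38 members, against 2.84% of 10862 genes, and the median difference was -0.39, which turned to 0.16 with ERCC scaling, where Fen1 was the 1 member that was higher and the median of all genes was 0.48. In BME, Tk1 was at 342, 233 and 274 CPM in basal wells and 291, 272 and 271 CPM in non-basal wells, in no common order. In Collagen I it was at 156 and 181 CPM in basal wells and 244 and 305 CPM in non-basal wells, lower in the basal wells of both plates. The difference of the effects was -0.75 (SE 0.18, edgeR adjusted p = 0.0127), and the call was lost under 8 of 19 alternatives, with a difference of -0.18 under ERCC scaling and -0.36 with wells of under 10% chromosome M counts.

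**Figure D2:**
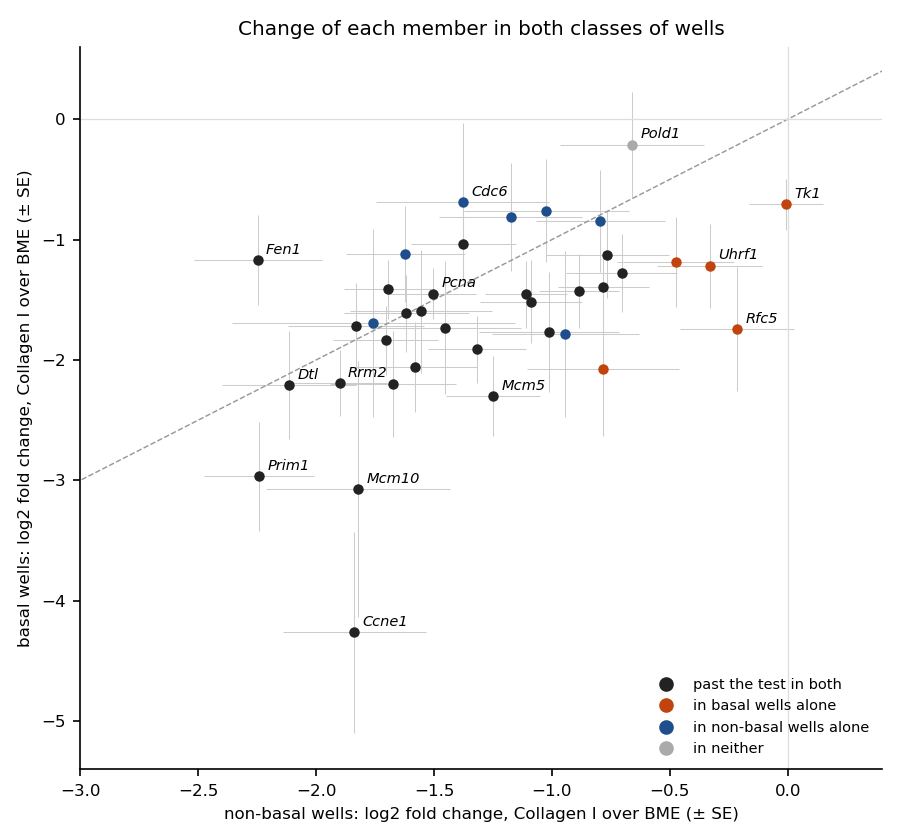
Log2 fold change (Collagen I over BME) of each of the 38 tested members in basal wells (vertical) and non-basal wells (horizontal), with bars for the SE, a dashed line of equal change and colors for the class in which the member passed the test. All 38 lie below 0 on both axes, Tk1 is nearest to 0 in non-basal wells, and the low points of Ccne1 and Mcm10 rest on 1 Collagen I count each in basal wells.

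Basal wells held less replication RNA than non-basal wells of their own plate. The ratio of the module's CPM was 0.768, 0.694 and 0.834 in BME against 0.738 and 0.493 in Collagen I, and that of its counts per ERCC count was 0.605, 0.606 and 0.742 and 0.880 and 0.615. In BME, 31 of 38 members were lower in basal wells by the paired test, against 17.3% of 10862 genes, with a median log2 fold change of -0.44. For 32 of 38 the basal level was lower in each of the 3 BME plates, against 29.1% of all genes. The origin loader Cdc6 led, with 7.74, 12.1 and 11.8 CPM in basal wells and 21.5, 25.7 and 26.5 CPM in non-basal wells of the same plates. Its log2 fold change was -1.22 (SE 0.19, edgeR adjusted p = 4.81e-06). Mcm10 was at 11.1, 7.84 and 16.1 CPM against 24.9, 30.8 and 22.2 CPM (-1.17).

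Other members were lower in basal wells of every BME plate by less. Cdc45, the helicase partner, was at 14.04, 22.5 and 18.05 CPM against 26.04, 36.2 and 35.6 CPM (-0.86), and Prim1 was at -0.65. Rfc4 was at 9.68, 14.3 and 14.5 CPM against 14.1, 27.3 and 17.8 CPM (-0.63), with overlap across plates though not within them. Pcna was at 401, 302 and 368 CPM against 628, 488 and 511 CPM (-0.62). Members at or near 0 on this contrast were Rfc3 (0.06), Tk1 (0.00), Gins2 (-0.01) and Rfc2 (-0.07). DESeq2 called 15 members lower in place of 31, and 1124 of all genes in place of 1879. Thinning left 1 of 21 members, and wells of under 10% chromosome M counts left 2. These last counts stand without the share of all genes called under the same setting.

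In Collagen I, 6 of 38 members were lower in basal wells, against 3.32% of genes, with a median log2 fold change of -0.75. For 26 of 38 the basal level was lower in both plates, against 30.0% of all genes. Rfc5, a clamp loader subunit, was at 4.96 and 10.6 CPM (2 and 4 counts) against 28.3 and 37.6 CPM (log2 fold change -2.15, SE 0.53, edgeR adjusted p = 0.00679). Mcm5 was at 24.8 and 10.6 CPM against 54.3 and 54.6 CPM (-1.64), and Uhrf1 at 27.3 and 16.0 CPM against 51.9 and 64.0 CPM (-1.44). These 3 and Mcm7, at 79.3 and 24.0 CPM against 111 and 115 CPM (-1.14), were below the non-basal level in both plates. Tk1 (-0.76) and Pcna (-0.63) were the other members that passed. Without Collagen I replicate 3 no member passed by edgeR, with 8 lower at an unadjusted p under 0.05, and DESeq2 on both plates called 6.

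To see how the difference was spread over wells, each well with at least 2000 counts was thinned to 2000 counts and its member counts were summed. This kept 800 BME and 419 Collagen I wells and left out 144 and 137 as too shallow. A score of at least 8 counts, the 80th percentile with plates weighted equally, was called high. High wells made up 30.8%, 29.0% and 32.05% of the wells in BME against 6.88% and 7.46% in Collagen I. The means were 30.6% ± 1.52 (SD, n = 3) and 7.17% ± 0.412 (SD, n = 2), and without thinning 29.8% and 5.48%. High is a range of the score and not a cell type, and 137 of the 1219 wells (11.2%) lay within 1 count of the limit.

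**Figure D3:**
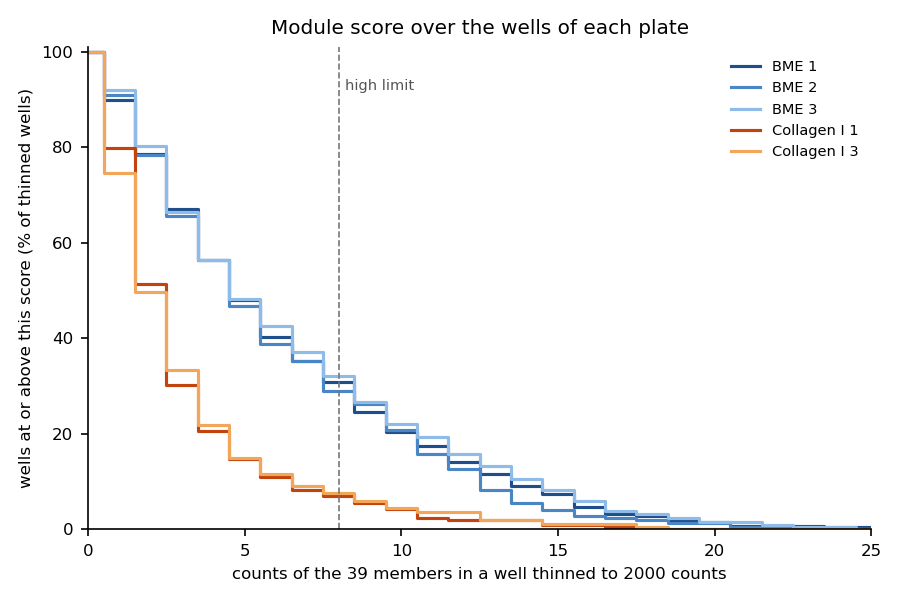
Share of thinned wells (percent) at or above each member score (counts among 2000), with 1 line for each of the 5 plates and a dashed line at the high limit of 8 counts. The BME lines lie together above both Collagen I lines, and at the limit they are at 29.0% to 32.05% against 6.88% and 7.46%.

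The wells under the limit had a mean of 2.92 counts in BME and 1.78 in Collagen I, and 9.09% of BME wells and 22.8% of Collagen I wells held no member count at all. In basal wells the high share was 20%, 22.8% and 25% in BME and 5.80% and 2.47% (4 of 69 and 2 of 81 wells) in Collagen I, and in non-basal wells it was 35.1%, 35.2% and 34.5% against 8.40% and 11.3%. In each plate the basal share was the lower of the pair. In Collagen I, 69 of 88 and 81 of 138 basal wells were deep enough to be thinned. The mitosis score described further on was high in 24.7%, 17.4% and 25% of basal wells in BME and 7.25% and 6.17% in Collagen I, and in 33.3%, 28% and 22.1% of non-basal wells against 15.1% and 22.7%, where the matrices overlapped.

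**Figure D4:**
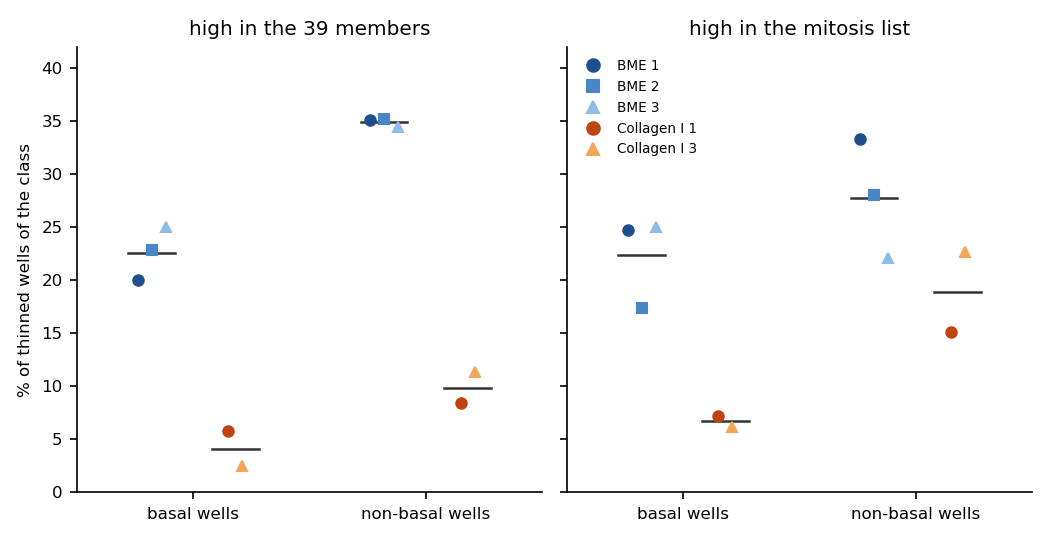
Percent of thinned basal and non-basal wells with a high score in the 39 members (left, at least 8 of 2000 counts) and in the mitosis list (right, at least 7), with 1 point per plate and a bar at the mean of each matrix. On the left the Collagen I plates lie below the BME plates in both classes, and on the right they do so in basal wells but overlap with them in non-basal wells.

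On average over the BME plates, Pcna had the highest correlation with the rest of the module in thinned wells. Its correlation with the sum of the other members averaged 0.500 over the 3 plates, followed by Rrm2 at 0.441 and Mcm5 at 0.358, and Tyms was lowest of the members with a value, at 0.093. In BME replicate 3 alone, Rrm2 (0.499) was above Pcna (0.480). Tyms was found in only 6.29%, 8.24% and 3.47% of thinned BME wells, with correlations of -0.006, 0.068 and 0.217. The part of detection in this order was not tested. These are descriptions over wells that share library and depth. Pcna was found in 50.3%, 38.4% and 42.5% of thinned BME wells and 24.3% and 20.9% of thinned Collagen I wells. Tk1 was found in 39.2%, 35.3% and 32.8% and in 27.5% and 35.3%, so that its shares overlapped between the matrices.

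A list of 30 mitosis genes was lower in Collagen I as well. In all wells 21 of 30 passed, against 16.3% of all genes, with a median log2 fold change of -0.78. Aurkb, the kinase of the chromosomal passenger complex, was at 55.5, 44.1 and 45.5 CPM in BME and 13.99 and 20.5 CPM in Collagen I (-1.52), and Mki67, a marker of cycling cells, was at 279, 189 and 218 CPM against 91.0 and 96.5 CPM (-1.29). In basal wells 24 of 30 passed (median -1.71), against 8.31% of all genes, and in non-basal wells 13 of 30 (median -0.57), against 13.9%. The test of the difference between the classes passed for 8 of 30 mitosis genes, with Nusap1 at -2.75, Ube2c at -1.79 and Top2a at -1.76, against 2.84% of all genes, with a median of -1.14. With ERCC scaling 4 of 30 passed, with a median of -0.57 where that of all genes was 0.48, and with thinning 1 of 21 did. In basal wells of the Collagen I plates, Nusap1 rested on 2 and 2 counts, Ube2c on 26 and 20 and Top2a on 19 and 12. Between basal and non-basal wells, 17 of 30 were lower in Collagen I, against 3.32% of all genes, and 9 of 30 in BME, against 17.3%.

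At the level of wells, a mitosis score of at least 7 of 2000 counts was found in 25.4% ± 4.94 (SD, n = 3) of BME wells and 13.9% ± 2.15 (SD, n = 2) of Collagen I wells. Wells high in the replication score alone made up 19.7% in BME and 4.28% in Collagen I. Wells high in the mitosis score alone made up 14.5% and 11.0%, with overlap between the matrices. By plate, these last shares were 18.9%, 11.4% and 13.1% in BME and 10.1% and 11.9% in Collagen I. Among the mitosis-high wells, 43.6% ± 5.01 were also high in replication genes in BME and 20.5% ± 2.87 in Collagen I, and among the others 26.4% ± 2.92 and 4.97% ± 0.375.

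The members' levels were also set against the mitosis score within BME. In wells with a high mitosis score, 23 of the 39 members had a higher CPM than in the other wells of the same plate in all 3 BME plates, as did 21.6% of the 11809 genes tested that are not in the mitosis list, and 5 had a lower one, as did 27.5% of those genes. The wells were divided by a score from the same libraries, so these ratios are a description. Rrm1 was highest, at ratios of 2.18, 2.11 and 2.13, and Tk1 was at 1.91, 1.69 and 1.70. The 5 below 1 in every plate were Ung, at 0.406, 0.596 and 0.259, and Dtl, Cdt1, Mcm2 and Rpa2.

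**Figure D5:**
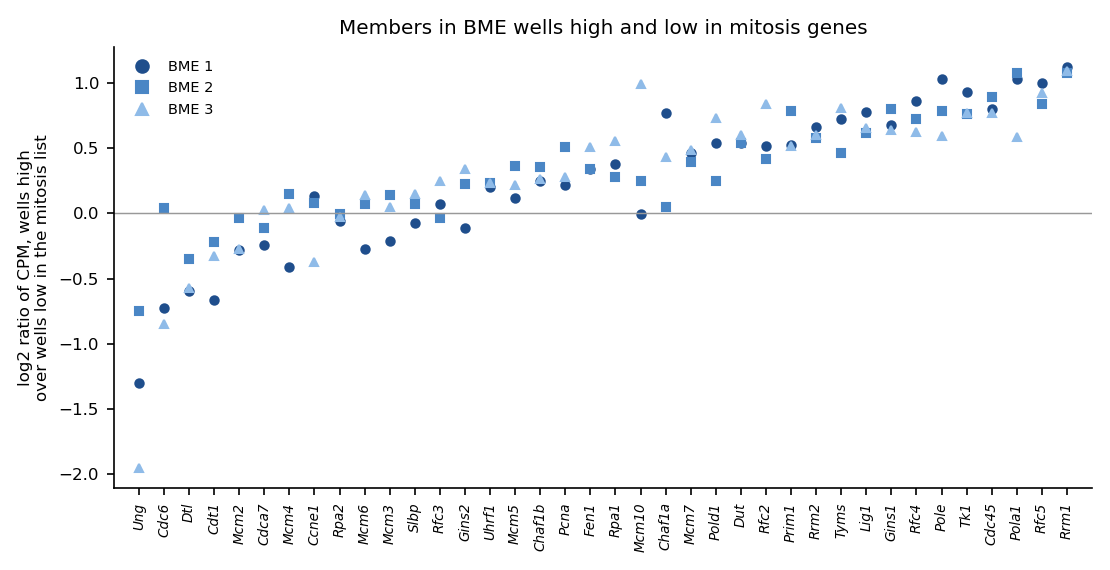
Log2 ratio of each member's CPM in BME wells with a high mitosis score (at least 7 of 2000 counts) to that in the other BME wells, with 1 point per plate, a line at 0 and members ordered by their mean. Ccne2 is not drawn, Ung lies lowest and Rrm1 highest, with all 3 plates on the same side of 0 for each.

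Other genes of the pathway were lower in Collagen I as well. Of 64 further replication genes, 44 of 62 tested were lower in Collagen I in all wells, against 16.3% of all genes. The median log2 fold change of the 62 was -1.05. Asf1b, a histone chaperone, was at 75.7, 51.2 and 62.8 CPM in BME and 13.3 and 11.7 CPM in Collagen I (-2.33), and Dscc1, of an alternative clamp loader, Exo1, a nuclease, and Clspn, of the replication checkpoint, were at -2.30, -1.84 and -1.80. The 1 gene that was higher, against 15.5% of all genes, was Pold4, the small subunit of polymerase delta (log2 fold change 1.30, edgeR adjusted p = 0.00071). It was higher in basal wells (1.15) and non-basal wells (1.33) too.

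Of 13 E2F and pocket protein genes, 5 were lower in Collagen I in all wells, against 16.3% of all genes. They were the repressors E2f6, E2f7 and E2f8 (log2 fold changes -1.48, -1.66 and -1.37), E2f4 (-1.15) and the pocket protein Rbl1, which was at 51.8, 54.7 and 51.6 CPM in BME and 16.1 and 18.5 CPM in Collagen I (-1.62). The Collagen I plates held only 11 and 6 counts of E2f6, 5 and 3 of E2f7 and 23 and 10 of E2f8. In basal wells 23 of 61 replication genes and 3 of 12 E2F and pocket protein genes were lower, against 8.31% of all genes. In non-basal wells 35 of 61 and 4 of 13 were lower, against 13.9%. In BME, 34 of 61 and 6 of 13 were lower in basal than in non-basal wells, against 17.3% of all genes. Rbl1 (0.33), the E2F partner Tfdp2 (0.64) and Rnaseh2a (0.36), a subunit of RNase H, were higher in basal wells there. In Collagen I, 1 of 61 and 0 of 13 were lower in basal wells by edgeR, against 3.32% of all genes, with 10 and 2 at an unadjusted p under 0.05 and 0 of either list by DESeq2. The 1 gene was Dck, which phosphorylates deoxycytidine (-1.34, edgeR adjusted p = 0.0399).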

How the data were processed

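Single cells were measured by SORT-seq, in which a cell is sorted into a well and its transcripts carry a well barcode and a unique molecular identifier (UMI). The values are expected counts that the authors deposited per gene and well, obtained by correcting the number of distinct UMIs for saturation, with no normalization between wells. The authors mapped reads with BWA to mm10, with versions not given in the sources used here. The labels give UMIs of 4 bases, but 100% of the values in each plate are what a correction for 6 bases yields. The 88 ERCC transcripts were left out of totals. Kept wells of the 5 plates held 8317505, 8104849, 9084335, 1430023 and 1026495 counts. Wells were also kept under the study's limit of 10% of counts from mitochondrial genes (prefix mt-), and the same limit on all of chromosome M was an alternative. Doublets were not called, and an alternative dropped the top 5% of wells by counts.

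Counts were summed per plate and class, rounded, filtered with filterByExpr and tested with edgeR 4.0.16 (limma 3.58.1, R 4.3.3; TMM, quasi-likelihood test, Benjamini-Hochberg adjustment). The 10 basal and non-basal sums were fitted together with the plate as a block. CPM is a member's count per 1000000 counts of the class and plate. In simulated data for all wells, 22% of 2-fold and 79% of 4-fold changes were recovered, and for basal wells 16% and 74.7%. The simulation gave all genes the same fixed dispersion, not estimated from these plates, and changed only genes above a minimum count. These rates hold for that setting alone. DESeq2 1.42.0, other scalings, filters, class limits and depths were alternatives. The members and lists were chosen with earlier results of these data known. Values are given for the members past the test with the largest changes (up to 12 in all wells, 8 in each class and 5 in each contrast of classes) and for the most abundant of each role, and examples are given from the other lists. Gene positions are from GENCODE vM21.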

Additional observations from a re-analysis of the deposited data

Results flagged for a closer look

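The change of Tk1 from BME to Collagen I plates differed between basal and non-basal wells by a test of the difference itself. The log2 difference was -0.75 (SE 0.18, edgeR adjusted p = 0.0127), and matrix and sequencing run cannot be told apart in it. In basal wells the log2 fold change of Tk1 was -0.71 (edgeR adjusted p = 0.0224) and in non-basal wells it was -0.01 (edgeR adjusted p = 0.98). Tk1 was the 1 member of 38 to pass this test, a share near the 2.84% of all 10862 genes that were called lower by it. The call was lost under DESeq2, with wells thinned to 2000 counts, with ERCC scaling, with wells of under 10% chromosome M counts, with stricter class limits, and without BME replicate 1, Collagen I replicate 1 or Collagen I replicate 3.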

How the results depend on the processing

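Of 128 alternatives of the 7 summary results, 103 stayed within 1.5 times the count (or within 1 SD of the share). Of 828 alternatives of 45 results on single members, 51 lost the call and 0 turned the direction. Settings in which a member fell out of the test for low counts are not among the 828. Mcm10 in basal wells had 17 alternatives, for example, and Rrm2 had 20. The 45 also hold Tk1 in all wells, which had no call to lose. With wells thinned to 2000 counts, the members called lower were 19 of 32 tested in all wells, 8 of 11 in basal wells, 13 of 24 in non-basal wells, 1 of 21 between the classes in BME, 2 of 21 in Collagen I and 0 of 21 for the difference of effects. ERCC scaling gave 18 in basal wells and 0 for the difference, where 1 member, Fen1, was higher. Under it the median of all genes was -0.70 in all wells, -0.44 in basal wells and -0.87 in non-basal wells, and in all wells 1136 genes were lower and 215 higher, against 1927 and 1838 with TMM. The median of the members was -2.01 in all wells, and for the difference it went from -0.39 to 0.16. Wells of under 10% chromosome M counts gave 15 in basal wells, 19 in non-basal wells, 2 between the classes in BME, and 0 in Collagen I and for the difference. DESeq2 gave 15 between the classes in BME and 0 for the difference, and stricter class limits (at least 10 and under 1 per 10000) gave 0 for the difference. At an unadjusted p under 0.05, the edgeR counts of 0 had 4 members lower in Collagen I with the chromosome M limit, and for the difference 1 with thinning, 0 with ERCC scaling, 1 with the chromosome M limit and 5 with the class limits, and DESeq2 had 3. DESeq2 was not run under those settings. Most of these counts stand without the share of all genes called under the same setting. Leaving out each plate in turn gave 26 to 38 in all wells, 12 to 32 in basal wells (12 without Collagen I replicate 3), 23 to 33 in non-basal wells, 20 to 32 between the classes in BME (20 without BME replicate 2), 0 to 6 in Collagen I (0 without Collagen I replicate 3) and 0 to 1 for the difference (0 without BME replicate 1 or Collagen I replicate 3, with 5 and 3 at an unadjusted p under 0.05). Without 1 Collagen I plate the other is assumed to vary like the BME plates. The share of high wells was 23.4 percentage points higher in BME, and 22.7 to 24.2 points without single plates. It was 32.8 points with the limit at the 70th percentile, 14.6 at the 90th, 27.1 with wells thinned to 1000 counts and 27.3 without the top 5% of wells. The cause of these changes was not tested, except that thinning and the chromosome M limit left fewer wells and members to test.

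With the replicate number as a block, 33 members were called in all wells, 30 in basal wells and 29 in non-basal wells. Only replicates 1 and 3 are shared by both matrices, and the deviations of same-numbered plates had correlations of -0.0127 and 0.0134 over 11839 genes, so the numbers were not taken to pair the plates. Depth limits the Collagen I values. Its 2 plates held 2068 and 1382 member counts in all wells, against 27256 to 29485 in the BME plates, and a member with a few counts there has a wide error.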
